A study of Homo sapiens with 6 samples.

Results

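Chromosome segregation rests on the kinetochore, the protein assembly that forms on the centromere of each chromosome and holds the microtubules of the spindle. The genes examined here are 36 genes for centromere and kinetochore proteins, listed by name, out of 60612 genes in the deposited table. The list uses no measured value, but it was chosen with earlier results of these data known. RNA was sequenced from U87, an established human glioblastoma cell line, in 6 libraries. The 3 control libraries (NC) came from cells that received a scramble shRNA by lentivirus, and the 3 shPRMT6 libraries from cells that received an shRNA against PRMT6, an arginine methyltransferase, in the same way. According to the study's methods the lentiviral cells were selected with puromycin to give stable cells, and neither the labels nor the methods say which PRMT6 shRNA was sequenced. All groups thus carry a lentiviral shRNA, and no library of unmodified U87 cells was analysed here. The methods call the replicates independent. The labels do not say that they came from separate cultures, so the p-values measure the spread between these libraries, which may be technical.

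The centromere is marked by nucleosomes that hold the histone variant CENP-A, which is loaded once in each cell cycle by its chaperone HJURP with the help of the MIS18 proteins. On these nucleosomes sits the constitutive centromere-associated network (CCAN), which stays at the centromere through the cell cycle. In mitosis the CCAN recruits the KNL1, MIS12 and NDC80 assemblies, and NDC80 binds the microtubule with the help of the Ska complex. CENP-E and CENP-F join the outermost layer (corona), and the shugoshins protect the cohesin that holds sister centromeres together. Many of these genes are transcribed mainly in S phase, G2 and mitosis, so their RNA in a bulk sample depends on how many cells are in those phases. In these bulk libraries fewer cells in a phase and less RNA per cell cannot be told apart.

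The libraries held 56388161 to 75887696 counts. Levels are CPM, counts scaled to a common library size with TMM factors. Where values are listed without names, they are those of NC replicates 1, 2 and 3 and then of shPRMT6 replicates 1, 2 and 3, and errors are SD over 3 libraries unless they are called SE. All 36 genes passed the filter on low counts. The lowest count of a member was 10, in CENPV. The others had at least 159 counts in every library, a value reached by OIP5. PRMT6 itself was 9.33, 7.97 and 7.19 CPM in NC and 3.56, 4.58 and 5.24 CPM in shPRMT6, or 54.7% of the NC mean. The groups did not overlap for PRMT6 (log2 fold change -0.87, SE 0.187, adjusted p = 0.0225, edgeR). Leaving out NC replicate 1 gave PRMT6 an adjusted p of 0.0613 (edgeR). It was 0.0588 when shPRMT6 replicate 1 was dropped and 0.0713 when shPRMT6 replicate 2 was. Of the fixed U87 and glial markers, VIM (7087 to 8421 CPM), CD44 and NES were expressed, while OLIG2 was 2.14 to 3.20 CPM, GFAP and SOX2 stayed under 1 CPM and S100B had no count, so the markers of glial identity were largely absent. PTPRC, CD3E and CD79A, which mark leukocytes, and CDH5 and CLDN5, which mark endothelium, were at or near 0. The macrophage and lysosomal marker CD68 was 144 to 316 CPM. Of the neuronal markers SNAP25 was 17.6 to 20.4 CPM and TUBB3 87.5 to 222 CPM, while RBFOX3 (0 to 0.473 CPM) and SYP (0.126 to 1.71 CPM) were low.

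The first question was how RNA of these genes differed between shPRMT6 and NC cells. Of the 36 genes, 20 fell and 0 rose past an adjusted p of 0.05 (quasi-likelihood test of edgeR, with p-values adjusted by Benjamini-Hochberg over 18106 genes). Over all genes tested, 9.06% fell and 9.51% rose by the same rule. The median log2 fold change of the 36 genes was -0.45, beside -0.01 over all genes tested, and 30 of the 36 values were negative. In 24 of the 36 genes every shPRMT6 library lay below every NC library, and over all genes tested this held for 19.8%. The values ran from -1.42 for CENPM to 0.43 for CENPT, which were both CCAN genes. CENPT was the 1 gene with a positive value and an unadjusted p under 0.05, and DESeq2 called it higher (adjusted p = 0.0446), while limma on FPKM called no member higher. By the threshold of the study's methods, a log2 fold change below -1 with an unadjusted p under 0.05, CENPM, SPC25, CENPQ and CENPH passed, 4 of 36, beside 2.63% of all genes tested. The count changed when 1 library was left out. By this fit 13 genes fell when NC replicate 3 was dropped, 13 when shPRMT6 replicate 1 was and 12 when shPRMT6 replicate 3 was. Over all genes tested, 3362 passed in either direction with all libraries, and 1939, 1871 and 1858 passed in those fits. Of the 20 genes that fell, 12 passed in each of the 6 fits that left out 1 library. Those 12 genes were CENPA, CENPH, CENPM, CENPQ, CENPU, CENPW, NDC80, NUF2, SPC24, SPC25, HJURP and SGO1.

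**Figure D1:**
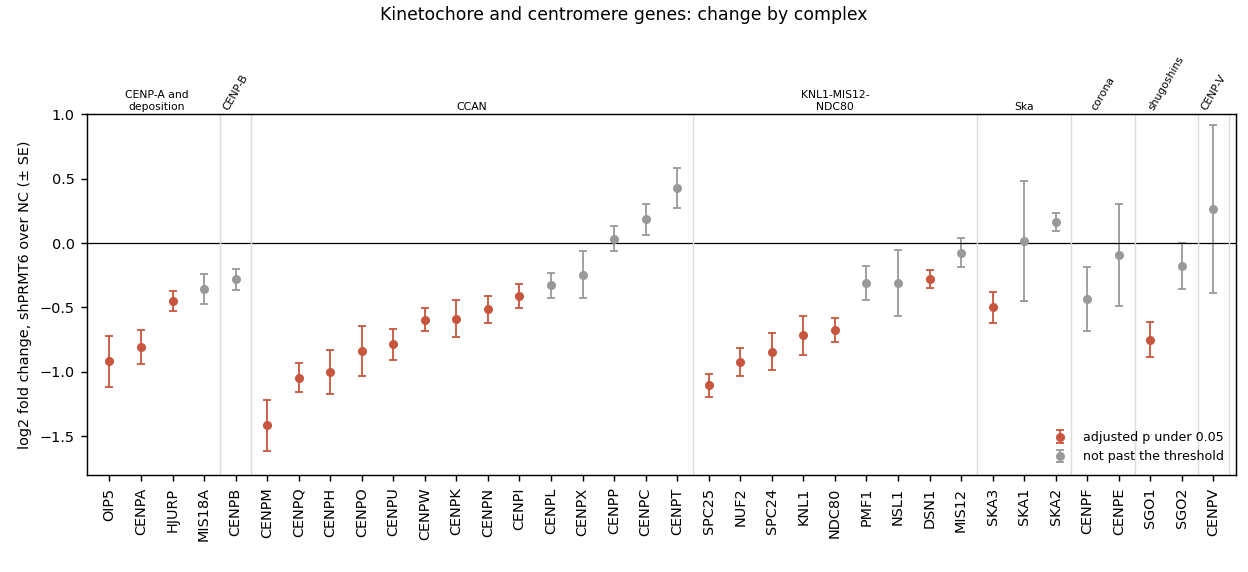
Log2 fold change of each of the 36 genes (y axis, shPRMT6 over NC, bars are SE) grouped by complex and ordered by value within it. Red points passed an adjusted p of 0.05; the falls run from -1.42 (CENPM) to -0.28 (DSN1), and no point above 0 passed.

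**Figure D2:**
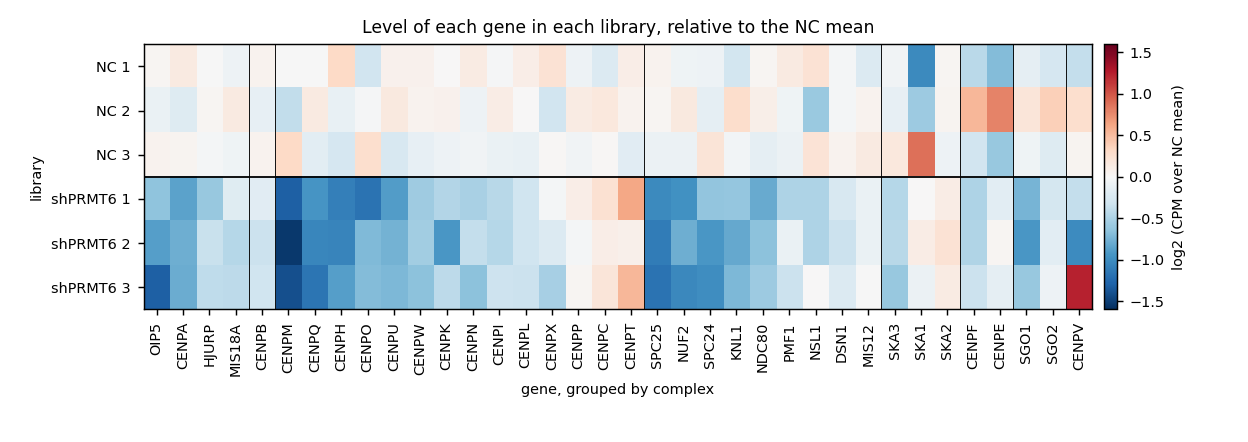
Level of each gene in each of the 6 libraries as log2 of its CPM over the NC mean of that gene (colour), with genes on the x axis grouped by complex and libraries on the y axis. Blue fills most of the lower 3 rows; CENPE and CENPF are darkest red in NC replicate 2 and SKA1 in NC replicate 3, and the dark red of CENPV in shPRMT6 replicate 3 rests on 52 counts.

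Among the genes for the CENP-A nucleosome and its loading, CENPA, HJURP and OIP5 fell and MIS18A did not pass the threshold. CENPA, the centromeric histone (ENSG00000115163, chromosome 2 from 26764289 to 26801067 of GRCh38), was 9.97, 7.86 and 9.29 CPM in NC and 4.99, 5.26 and 5.22 CPM in shPRMT6. Every shPRMT6 library was thus below every NC library, and the mean was 57.1% of NC (log2 fold change -0.81, SE 0.132, adjusted p = 0.00874, edgeR). HJURP, the CENP-A chaperone, had the second largest mean CPM in NC after CENPF, which was above it in NC replicate 2 only. HJURP was 113, 117 and 111 CPM in NC and 74.9, 88.5 and 85.7 CPM in shPRMT6 (log2 fold change -0.45, SE 0.0775, adjusted p = 0.0104, edgeR). OIP5 (MIS18-beta), which with MIS18A forms the complex that licenses the centromere for new CENP-A, was the lowest of the group, at 5.97, 5.42 and 6.07 CPM in NC and 3.74, 3.15 and 2.35 CPM in shPRMT6. The groups did not overlap for OIP5 (log2 fold change -0.92, SE 0.198, adjusted p = 0.0229, edgeR). Dropping NC replicate 1 or 3 gave OIP5 an adjusted p of 0.0611 or 0.0745, and dropping shPRMT6 replicate 2 or 3 gave 0.0750 or 0.0518 (edgeR). Of the 1236 exon bases of OIP5, 470 overlap OIP5-AS1 on the opposite strand, whose own RNA was 54.6 CPM in NC and 37.6 CPM in shPRMT6. Whether the counting used strand is not given in the sources used here. It is thus not known if reads of OIP5 and OIP5-AS1 were told apart over those bases. MIS18A was 17.01 to 19.8 CPM in NC and 13.1 to 15.6 CPM in shPRMT6, also without overlap, with a log2 fold change of -0.35 (adjusted p = 0.0825, edgeR).

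The CCAN was represented by 14 genes, of which 9 fell and 5 did not pass the threshold. All 4 genes of the CENP-H, I, K and M group, a rod within the CCAN that leads to the outer kinetochore, fell. CENPM (ENSG00000100162, chromosome 22 from 41938721 to 41947164) was 13.7, 10.4 and 17.1 CPM in NC and 5.54, 4.69 and 5.19 CPM in shPRMT6. At 37.4% of NC it had the lowest share of all 36 genes, and its NC libraries also spread widely (log2 fold change -1.42, SE 0.196, adjusted p = 0.00519, edgeR). CENPH was 23.6, 17.4 and 15.8 CPM in NC and 8.87, 9.13 and 10.3 CPM in shPRMT6, or 49.8% of NC (log2 fold change -1.004, SE 0.170, adjusted p = 0.0101, edgeR). The changes of the other two genes of this group were smaller. CENPK was 36.5, 38.1 and 34.4 CPM in NC and 26.3, 19.1 and 27.1 CPM in shPRMT6 (log2 fold change -0.59, adjusted p = 0.0347, edgeR). CENPI was 28.3, 31.3 and 26.7 CPM in NC and 21.1, 21.0 and 22.9 CPM in shPRMT6 (log2 fold change -0.41, adjusted p = 0.0282, edgeR). In neither gene did the groups overlap, but both calls were lost with fewer libraries. CENPK passed only without shPRMT6 replicate 2 and CENPI only without NC replicate 3 among the 6 fits that left out 1 library, where the adjusted p reached 0.0835 for CENPK (without NC replicate 1) and 0.101 for CENPI (without shPRMT6 replicate 2, edgeR).

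In the CENP-O, P, Q and U group, which helps to bind the kinase PLK1 to the centromere, 3 genes fell and CENPP did not. CENPQ (ENSG00000031691, chromosome 6 from 49463378 to 49493107) was 28.7, 31.8 and 25.6 CPM in NC and 14.9, 14.0 and 12.8 CPM in shPRMT6. Its shPRMT6 mean was 48.4% of NC (log2 fold change -1.05, SE 0.114, adjusted p = 0.00228, edgeR). CENPU, the PLK1-binding subunit, was 43.2, 46.0 and 34.7 CPM in NC and 22.3, 24.5 and 24.98 CPM in shPRMT6, with no overlap (log2 fold change -0.79, SE 0.123, adjusted p = 0.00761, edgeR). CENPO was 31.0, 37.6 and 46.1 CPM in NC and 16.9, 23.5 and 23.7 CPM in shPRMT6 (log2 fold change -0.84, SE 0.192, adjusted p = 0.0279, edgeR). CENPO passed without NC replicate 1 but not in the other 5 fits that left out 1 library, with adjusted p from 0.0601 (without NC replicate 2) to 0.0798 (without NC replicate 3). Of the exon bases of CENPO, 31.4% overlap genes on the opposite strand, chiefly ADCY3, whose own RNA was 45.1 CPM in NC and 23.5 CPM in shPRMT6. As for OIP5, it is not known if reads of CENPO and ADCY3 were told apart over those bases. CENPP was 15.8 to 18.3 CPM in NC and 16.4 to 17.96 CPM in shPRMT6, with overlapping groups, and 42.7% of its exon bases overlap genes on the opposite strand, chiefly IPPK (20.9 and 21.9 CPM).

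In the remaining CCAN groups CENPW and CENPN fell, and CENPC, CENPL, CENPT and CENPX did not pass. CENP-T, CENP-W and CENP-X are histone-fold proteins that bind centromeric DNA, and CENP-T recruits NDC80. CENPW was 34.4, 34.1 and 30.1 CPM in NC and 22.2, 22.3 and 20.8 CPM in shPRMT6 (log2 fold change -0.59, SE 0.0882, adjusted p = 0.00643, edgeR). CENPT stood on the other side, at 46.4, 44.9 and 38.1 CPM in NC and 66.4, 45.8 and 62.2 CPM in shPRMT6 (log2 fold change 0.43, SE 0.155, adjusted p = 0.106, edgeR). Its groups overlapped through shPRMT6 replicate 2, which lay between NC replicates 1 and 2, and without that library the adjusted p of CENPT was 0.0365 at a log2 fold change of 0.58 (edgeR). Genes on the opposite strand overlap 19.6% of the exon bases of CENPT, so its counts are uncertain in the same way. CENPX was 12.9 to 18.7 CPM in NC and 11.01 to 15.6 CPM in shPRMT6 and its groups overlapped. CENP-N reads the CENP-A nucleosome together with CENP-L. CENPN was 41.8, 36.2 and 36.8 CPM in NC and 26.7, 29.4 and 24.3 CPM in shPRMT6 (log2 fold change -0.51, SE 0.104, adjusted p = 0.0187, edgeR). Without NC replicate 3, shPRMT6 replicate 1 or shPRMT6 replicate 3 the adjusted p of CENPN was 0.0514, 0.0665 and 0.0640 (edgeR). Its counts are also uncertain, since 24.8% of its exon bases overlap genes on the opposite strand, chiefly CMC2 (29.4 CPM in NC and 25.6 CPM in shPRMT6). CENPL was 15.5 to 18.2 CPM in NC and 13.3 to 13.5 CPM in shPRMT6 without overlap (log2 fold change -0.33, adjusted p = 0.0601, edgeR). CENPC, the protein that links the CENP-A nucleosome to MIS12, was 15.4, 20.2 and 18.04 CPM in NC and 21.2, 19.3 and 20.5 CPM in shPRMT6 (log2 fold change 0.18, adjusted p = 0.341, edgeR).

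The NDC80 complex binds the microtubule through NDC80 and NUF2 and the inner kinetochore through SPC24 and SPC25, and all 4 of its genes fell. SPC25 (ENSG00000152253, chromosome 2 from 168834132 to 168913371) had the smallest p of all 36 genes. It was 31.5, 31.1 and 28.5 CPM in NC and 14.99, 13.9 and 13.4 CPM in shPRMT6, or 46.4% of NC (log2 fold change -1.11, SE 0.0902, adjusted p = 0.00111, edgeR). The libraries of each group lay close together, and the highest shPRMT6 value was far under the lowest NC value. NUF2 was 34.1, 39.7 and 33.4 CPM in NC and 18.3, 20.8 and 17.5 CPM in shPRMT6 (log2 fold change -0.92, SE 0.110, adjusted p = 0.00313, edgeR). SPC24 was 28.2, 27.1 and 34.5 CPM in NC and 19.3, 15.8 and 15.01 CPM in shPRMT6 (log2 fold change -0.84, SE 0.142, adjusted p = 0.00990, edgeR). NDC80 was 64.2, 67.1 and 57.0 CPM in NC and 36.01, 39.97 and 42.04 CPM in shPRMT6 (log2 fold change -0.67, SE 0.0946, adjusted p = 0.00539, edgeR). The fall of all 4 genes passed in each fit that left out 1 library, and the groups overlapped in none of them.

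The MIS12 complex, which joins the CCAN to NDC80, had smaller values. Of its 4 genes DSN1 fell, and MIS12, NSL1 and PMF1 did not pass. DSN1 was 50.2, 50.3 and 53.2 CPM in NC and 42.7, 40.2 and 43.9 CPM in shPRMT6, or 82.5% of NC (log2 fold change -0.28, SE 0.0695, adjusted p = 0.0375, edgeR). The groups did not overlap, but the call was lost in each fit that left out 1 library. Dropping NC replicates 1, 2 and 3 in turn gave DSN1 an adjusted p of 0.0669, 0.0529 and 0.119, and dropping shPRMT6 replicates 1, 2 and 3 gave 0.105, 0.136 and 0.0801 (edgeR). MIS12 was 22.9, 27.7 and 29.6 CPM in NC and 24.7, 24.8 and 26.7 CPM in shPRMT6, where the groups overlapped (log2 fold change -0.07, SE 0.114). PMF1 was 16.7 to 19.7 CPM in NC and 12.6 to 16.5 CPM in shPRMT6 (log2 fold change -0.31, adjusted p = 0.158, edgeR). PMF1 shares 21.0% of its 75-base stretches with the readthrough gene PMF1-BGLAP, so its counts are uncertain. NSL1 was 24.2, 13.6 and 23.8 CPM in NC and 14.6, 14.6 and 20.6 CPM in shPRMT6, and NC replicate 2 was its lowest library. KNL1, the scaffold on which the checkpoint proteins BUB1 and BUB3 dock, was 33.4, 49.8 and 39.9 CPM in NC and 26.7, 23.3 and 24.997 CPM in shPRMT6 (log2 fold change -0.72, SE 0.153, adjusted p = 0.0225, edgeR). Its groups did not overlap. Dropping NC replicate 3 gave KNL1 an adjusted p of 0.0646, and dropping shPRMT6 replicates 1, 2 and 3 in turn gave 0.0587, 0.0827 and 0.0734 (edgeR).

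The Ska complex, which tracks the microtubule beside NDC80, was split. SKA3 was 13.5, 12.8 and 15.7 CPM in NC and 10.2, 10.3 and 9.19 CPM in shPRMT6 (log2 fold change -0.50, SE 0.118, adjusted p = 0.0312, edgeR). SKA3 passed without NC replicate 2 and in none of the other 5 fits that left out 1 library, where the adjusted p was 0.0600 (without NC replicate 1) to 0.105 (without shPRMT6 replicate 3). SKA2 was 49.6, 50.1 and 45.8 CPM in NC and 52.7, 57.0 and 53.2 CPM in shPRMT6. It was the 1 gene of the 36 in which every shPRMT6 library lay above every NC library, but it did not pass the test (log2 fold change 0.16, SE 0.0712, adjusted p = 0.168, edgeR). How often genes over the whole set tested show this pattern is not given here. SKA1 was 7.85, 10.6 and 29.2 CPM in NC and 15.98, 17.2 and 14.96 CPM in shPRMT6. Its NC replicate 3 lay above and its other two NC libraries below every shPRMT6 library, so the log2 fold change of 0.01 (SE 0.466) rests on NC libraries that disagree. Without NC replicate 3 the log2 fold change of SKA1 was 0.79 (adjusted p = 0.0439, edgeR), and without NC replicate 1 it was -0.32 (adjusted p = 0.667, edgeR).

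The values of CENPE, CENPF and SGO2 also depended on 1 library. CENP-E is a kinesin that carries chromosomes along microtubules and CENP-F is a large coiled-coil protein that binds dynein regulators. CENPE was 12.7, 35.4 and 13.4 CPM in NC and 18.2, 20.9 and 18.5 CPM in shPRMT6. NC replicate 2 held more CENPE RNA than every shPRMT6 library and the other NC libraries held less. With all libraries CENPE had a log2 fold change of -0.09 (SE 0.397, adjusted p = 0.898, edgeR), and without NC replicate 2 one of 0.56 (adjusted p = 0.0251, edgeR). CENPF, with the largest CPM of the 36 genes, was 94.1, 183 and 103 CPM in NC and 89.8, 91.1 and 99.6 CPM in shPRMT6. Its log2 fold change was -0.44 (adjusted p = 0.276, edgeR) and moved to -0.07 without NC replicate 2. SGO2, a shugoshin, was 43.5, 68.3 and 45.6 CPM in NC and 43.2, 46.9 and 49.4 CPM in shPRMT6, with log2 fold changes of -0.18 with and 0.06 without NC replicate 2. On the log2 scale NC replicate 2 exceeded the mean of the other NC libraries by 1.44 in CENPE, 0.90 in CENPF, 0.62 in SGO2 and 0.45 in KNL1.

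Over all genes tested, NC replicates 1 and 2 deviated from the other NC libraries by transcript length, in opposite directions. The median log2 deviation of NC replicate 2 was 0.18 over 1270 genes with a longest transcript over 8 kb and -0.08 over 5380 genes under 2 kb, and that of NC replicate 1 was -0.18 and 0.11. By GC content the median of NC replicate 2 was 0.15 over 2775 genes under 40% GC and -0.13 over 2242 genes over 60% GC, and that of NC replicate 1 was -0.09 and 0.06. Over 5067 genes of 4 to 8 kb the median of NC replicate 2 was 0.08. The longest transcripts of CENPE, CENPF, KNL1 and SGO2 in GENCODE 29 have 8612, 10307, 9573 and 4214 bases. Those of CENPP and CENPC have 8766 and 6940 bases. In CENPP and CENPC, NC replicate 2 exceeded the mean of the other NC libraries by only 0.20 and 0.28 on the log2 scale. The part of transcript length in the NC replicate 2 values of these genes was not tested. The trend of each library on length and GC was also removed, a setting chosen once the values were known. The log2 fold changes were then -0.12 for CENPE, -0.47 for CENPF, -0.26 for SGO2 and -0.77 for KNL1. With this setting 21 of the 36 genes fell, and over all genes 3670 passed in either direction, in place of 3362 without it. NC replicate 2 was also the deepest library. SGO1, the other shugoshin, in which NC replicate 2 exceeded the other NC libraries by 0.30 on the log2 scale, was 17.96, 22.6 and 18.8 CPM in NC and 11.9, 10.4 and 13.01 CPM in shPRMT6 (log2 fold change -0.75, SE 0.134, adjusted p = 0.0120, edgeR). Its groups did not overlap. Of the exon bases of SGO1, 17.7% overlap SGO1-AS1 on the opposite strand, which stood at 0.233 CPM in NC and 0.0920 CPM in shPRMT6.

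**Figure D3:**
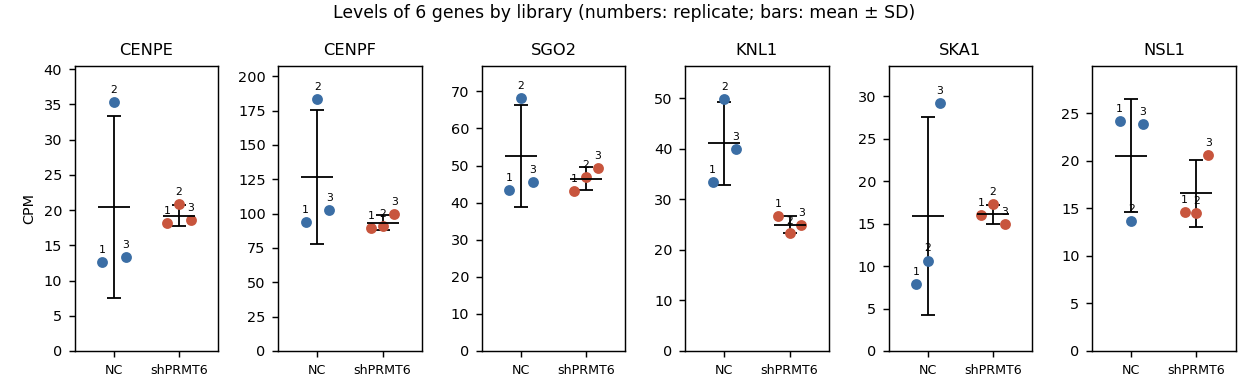
CPM (y axis, from 0) of CENPE, CENPF, SGO2, KNL1, SKA1 and NSL1 in each library; points are libraries with their replicate number, bars are the mean ± SD of 3. NC replicate 2 is highest in CENPE (35.4), CENPF (183), SGO2 (68.3) and KNL1 (49.8) and lowest in NSL1 (13.6), and NC replicate 3 is highest in SKA1 (29.2).

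The remaining 2 genes did not pass. CENPB, which binds a short motif in alpha-satellite DNA, was 85.8, 75.3 and 85.8 CPM in NC and 72.5, 64.8 and 66.2 CPM in shPRMT6, and its groups did not overlap (log2 fold change -0.28, SE 0.0817, adjusted p = 0.0599, edgeR). Without NC replicate 2 the adjusted p of CENPB was 0.0317 (edgeR), and with length and GC trends removed its log2 fold change was -0.08 (adjusted p = 0.372, edgeR). The longest transcript of CENPB has 66.2% GC. CENPV, a protein of the mitotic midzone and of centromeric heterochromatin, had 14, 30 and 21 counts in NC and 16, 10 and 52 counts in shPRMT6, with overlapping groups (log2 fold change 0.27, SE 0.651).

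Levels of different genes were compared per length, as the deposited FPKM (fragments scaled to gene length and library size). In NC the highest means were CENPW (32.4 ± 2.11 FPKM), HJURP (25.04 ± 0.558 FPKM) and CENPB (24.0 ± 1.80 FPKM), of which HJURP and CENPB did not differ beyond their spread. DSN1, NDC80 and SPC25 followed at 15.7, 14.9 and 14.0 FPKM. At the other end were CENPV (0.0877 FPKM), NSL1 (1.25 FPKM) and CENPP (1.51 FPKM). The length behind the FPKM of NSL1 was 4.04 times its exon length in GENCODE 29, while for most members this ratio was near 1.19. The FPKM of NSL1 may thus be understated beside the others, but the annotation behind its counts is not given. Within the NDC80 complex the NC means were 14.9 FPKM for NDC80, 14.0 for SPC25, 8.94 for NUF2 and 8.89 for SPC24. In shPRMT6 they were 9.37, 6.52, 4.74 and 4.97 FPKM. Within the Ska complex SKA2 was the highest, at 12.6 ± 0.512 FPKM in NC and 14.2 ± 0.593 FPKM in shPRMT6, against 3.92 ± 0.463 and 2.79 ± 0.163 FPKM for SKA3.

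Members of a complex are often made in fixed proportions, so the log2 ratio of the CPM of 2 genes was taken within each library for 33 pairs inside 9 groups. The ratio did not overlap between NC and shPRMT6 in 13 of 33 pairs. Of all pairs of genes with counts in every library, 35.7% did not overlap, so the count over the 33 pairs was close to the background. The two-sided exact permutation test gave p = 0.1 for each of the 13 pairs, the smallest p that 3 libraries against 3 allow, and 0.254 after adjustment over the 33 pairs. The largest difference was in CENPP over CENPQ, with log2 ratios of -0.86, -0.80 and -0.67 in NC and 0.27, 0.23 and 0.41 in shPRMT6. Next came CENPT over CENPW, with 0.43, 0.40 and 0.34 in NC and 1.58, 1.04 and 1.58 in shPRMT6. CENPI over CENPM differed by 0.99 and SKA2 over SKA3 by 0.66 on the log2 scale, both higher in shPRMT6. Within the NDC80 complex the differences were smaller: the log2 ratio of NDC80 over SPC25 was 1.05 ± 0.0578 in NC and 1.48 ± 0.198 in shPRMT6, and that of NUF2 over SPC24 was 0.26 ± 0.299 and 0.18 ± 0.241 with overlapping groups. The log2 ratio in shPRMT6 minus that in NC was -0.60 for SGO1 over SGO2 and -0.35 for CENPA over HJURP.

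**Figure D4:**
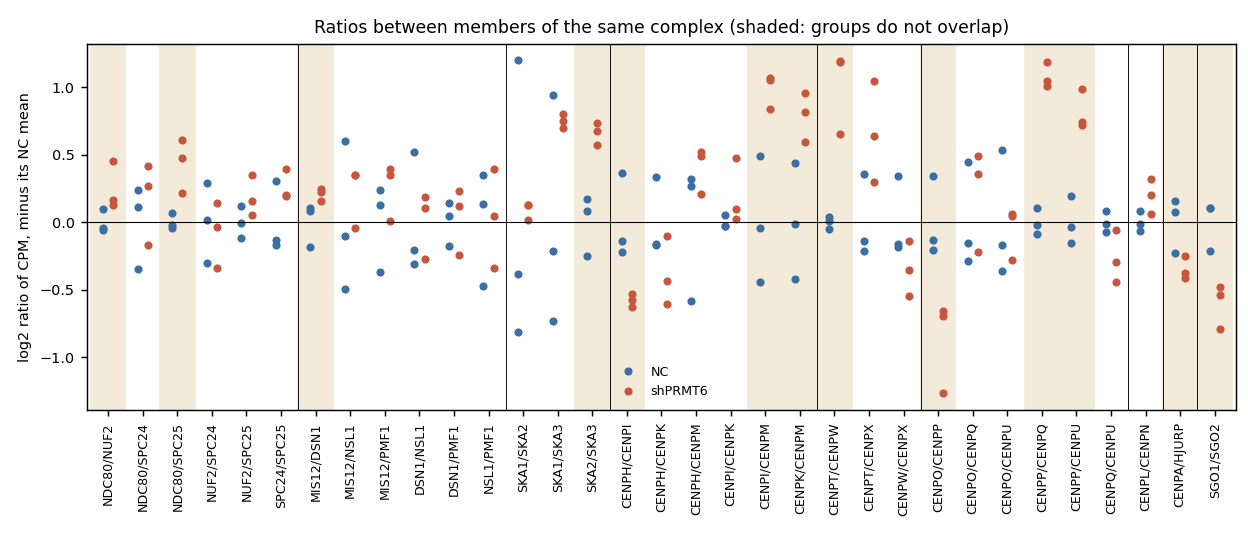
Log2 ratio of the CPM of 2 genes of the same group in each library, minus the NC mean of that ratio (y axis), for 33 pairs on the x axis; points are libraries. The 13 shaded pairs have groups that do not overlap, among them CENPP/CENPQ, which is 1.08 higher in shPRMT6.

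The same comparison was made in 4 lists of related genes that hold none of the 36. Of 28 other kinetochore and centromere genes, such as spindle checkpoint proteins and the chromosomal passenger complex, 16 fell and 1 rose, with a median log2 fold change of -0.45. The smallest p were those of KIF2C, a microtubule-depolymerising kinesin (116 ± 4.72 CPM in NC and 55.3 ± 2.15 in shPRMT6, log2 fold change -1.07), PLK1, a mitotic kinase (-0.89), and CDCA8 (borealin, -0.79). The 1 gene that rose was ZW10, which brings dynein to the kinetochore (log2 fold change 0.71, adjusted p = 0.00916, edgeR) and which is named after its value was seen. Of 15 cohesin genes, 6 fell and 0 rose, with a median of -0.29, and the smallest p were those of ESPL1 (separase, -0.58), RAD21 (-0.53) and CDCA5 (sororin, -0.64). Of 39 G2/M markers 30 fell and 0 rose, with a median of -0.79, led by NUSAP1 (-1.01), TPX2 (-0.79) and CCNB2 (-1.20). Of 40 S phase markers 27 fell and 0 rose, with a median of -0.53, led by WDR76 (-0.75), POLA1 (-0.94) and TYMS (-0.83). For cohesin, the G2/M markers and the S phase markers, edgeR gave a positive value with an unadjusted p under 0.05 in 0, 0 and 1 genes, and neither DESeq2 nor limma called any of their genes higher.

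The summed level of the 36 genes was 1175 to 1327 CPM in NC and 915 to 946 CPM in shPRMT6. Markers of the cell cycle phases moved with it. The summed G2/M markers were 5388 to 5795 CPM in NC and 3531 to 3582 CPM in shPRMT6, and the S phase markers 3184 to 3369 CPM and 2272 to 2347 CPM. The part of the cell cycle phases in the changes of the 36 genes was not tested. Among the markers of other cell types, edgeR called 0 of the tested glial, leukocyte, endothelial and neuronal markers, of which the endothelial PECAM1 (2.89 ± 0.345 CPM in NC and 4.70 ± 0.897 CPM in shPRMT6) had a positive value with an unadjusted p under 0.05 and was called higher by DESeq2. The epithelial keratin KRT8 (6.35 ± 1.00 CPM in NC and 2.71 ± 0.901 CPM in shPRMT6) and CDH1 (under 1 CPM) fell, which left 2 of 4 epithelial markers called lower. The summed epithelial markers were 13.3 to 19.7 CPM in NC and 3.60 to 9.68 CPM in shPRMT6, and their part was not tested.

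Since many of the genes fell together, their promoters were read for motifs known from cell cycle genes. A RefSeq window on GRCh38.p14, from 250 bases before a RefSeq start of the gene to 50 after it, was found for 31 of the 36 genes. The start is that of the first window listed for the gene and can differ from the gene bounds given above. The windows of CENPA and SPC25, for example, lie well inside those bounds. CENPH, CENPL, CENPM, KNL1 and MIS18A had no entry. Searched on both strands were CCAAT, the box bound by NF-Y, TTTGAA, the cell cycle genes homology region (CHR) bound by the MuvB core, and the E2F sites TTCCCGC and TTGGCGC. None of these motifs contains another, and neighbouring matches may overlap. CCAAT was in 18 of 31 windows (58.1%) and in 35.7% of the windows of 27305 genes. TTTGAA was in 11 of 31 (35.5%) against 15.4%, and an E2F site in 9 of 31 against 9.33%. Of the 17 genes with a window that fell, 8 held TTTGAA and 11 held CCAAT, and of the 14 that did not pass, 3 and 7 did. An E2F site was in 5 of the 17 (29.4%) and in 4 of the 14 (28.6%), which are nearly the same share. These splits were not tested. A match is a string of letters and not a shown binding site.

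The windows below run from 120 bases before this RefSeq start to the first 5 bases from it. They are read 5′ to 3′ on the strand of the gene, with matches to the searched motifs on either strand in capitals. SPC25, NDC80 and SKA3 are shown because TTTGAA or its complement TTCAAA begins 3 bases before the start in each, and CENPA and HJURP because it lies farther upstream. CENPC also holds TTCAAA upstream, at -90 from the start, but did not pass (log2 fold change 0.18, adjusted p = 0.341, edgeR). Its window is not shown. CENPQ is shown as a gene that fell with a CCAAT box and no TTTGAA, and SKA2 as a gene that did not pass although it holds 3 CCAAT boxes in this stretch.
SPC25, chr2:168890426-168890550, minus strand: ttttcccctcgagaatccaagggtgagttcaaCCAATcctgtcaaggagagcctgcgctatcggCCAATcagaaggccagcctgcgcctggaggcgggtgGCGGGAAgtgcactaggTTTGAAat
NDC80, chr18:2571437-2571561, plus strand: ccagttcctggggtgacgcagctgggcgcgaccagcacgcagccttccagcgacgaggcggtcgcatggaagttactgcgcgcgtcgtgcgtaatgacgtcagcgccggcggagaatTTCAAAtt
SKA3, chr13:21176548-21176672, minus strand: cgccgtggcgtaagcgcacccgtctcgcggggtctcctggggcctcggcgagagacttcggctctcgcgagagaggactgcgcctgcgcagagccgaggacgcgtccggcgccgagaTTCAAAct
CENPA, chr2:26785936-26786060, plus strand: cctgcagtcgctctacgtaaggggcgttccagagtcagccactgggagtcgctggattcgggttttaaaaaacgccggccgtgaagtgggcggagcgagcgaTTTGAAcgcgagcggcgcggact
HJURP, chr2:233854531-233854655, minus strand: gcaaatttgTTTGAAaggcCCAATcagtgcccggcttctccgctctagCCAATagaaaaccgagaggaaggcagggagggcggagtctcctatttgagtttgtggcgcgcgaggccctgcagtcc
CENPQ, chr6:49463250-49463374, plus strand: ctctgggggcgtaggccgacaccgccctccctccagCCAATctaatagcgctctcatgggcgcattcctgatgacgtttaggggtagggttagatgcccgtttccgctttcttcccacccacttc
SKA2, chr17:59155182-59155306, minus strand: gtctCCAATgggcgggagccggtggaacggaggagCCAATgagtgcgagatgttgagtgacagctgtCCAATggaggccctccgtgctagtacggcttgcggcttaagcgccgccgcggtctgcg
In SPC25, whose RNA had the smallest p, 2 CCAAT boxes and an E2F site precede TTTGAA, whereas NDC80 and SKA3 hold the CHR letters without a CCAAT box in the whole window. CENPA has TTTGAA 18 bases before the start, and HJURP has it 111 bases before, followed closely by a CCAAT box. The SKA2 window, of the gene with every shPRMT6 library above every NC library, holds 5 CCAAT boxes in all and none of the other motifs.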

How the data were processed

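The 6 RNA libraries of U87 cells, 3 NC and 3 shPRMT6, were grouped by their titles. The authors deposited raw read counts per gene and FPKM values, scaled by gene length and library size, for each library. The submitters' processing notes name HISAT2, HTSeq 0.13.5 and GRCh38. The annotation release and the use of strand in counting are not given in the sources used here. All count and FPKM columns were used, and 60401 of 60612 identifiers matched a symbol. The 36 genes and all gene lists (other kinetochore and centromere genes, cohesin, G2/M, S phase and cell type markers) were chosen with earlier results of these data known.

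Counts were tested with edgeR 4.0.16 in R 4.3.3 (quasi-likelihood test, TMM scaling with factors from 0.992 to 1.01, its filter on low counts, Benjamini-Hochberg adjustment over 18106 genes). CPM and FPKM are shown per library. No library was a copy of another, since pairs of replicates had a chi-square of 48.2 to 78.4 for each degree of freedom. Alternatives were DESeq2 1.42.0, other scalings and count filters, limma 3.58.1 on log2(FPKM + 1) and log2(FPKM + 0.1), a replicate block, other thresholds, each library left out in turn and, chosen after seeing the data, length and GC trends removed from each library. The rule for genes named outside the 36 was PRMT6 and the 3 with the smallest p of each related list. ZW10, the cell type markers and the overlapping genes are named beside it, after their values were seen. Exon overlaps, shared 75-base stretches, transcript length and GC came from GENCODE 29 on GRCh38, and promoters from RefSeq (the first window listed for each gene). The programs were tested on simulated data. The proteome data were not analysed here, and not every overlapping gene is reported here.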

Additional observations from a re-analysis of the deposited data

How the results depend on the processing

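The falls of CENPA, CENPH, CENPM, CENPQ, CENPU, CENPW, NDC80, NUF2, SPC24, SPC25 and HJURP passed an adjusted p of 0.05 in all 16 other fits. The fits with DESeq2, without TMM factors, with upper quartile factors and with at least 10 counts in every library each called 20 members lower, and the others without a library left out or a block called 16 to 21. At an adjusted p under 0.01 the members called lower were 9, and 1320 genes passed in place of 3362 over all genes tested. With the threshold of the methods the counts called lower were 4 members, 1 of the other kinetochore genes, 0 cohesin genes, 9 G2/M markers and 1 S phase marker. Over all genes tested, 476 (2.63%) were called lower by it and 1072 passed in either direction. That threshold asks for a larger change and also uses unadjusted in place of adjusted p. Leaving out 1 library, which leaves fewer samples, gave 12 to 17 members lower and 0 to 1 higher (CENPE without NC replicate 2, SKA1 without NC replicate 3, CENPT without shPRMT6 replicate 2), and 1755 to 3183 genes over all genes tested. DESeq2 called 1 member higher (CENPT). The log2 fold change of CENPE turned to 0.080 with the replicate block, to 0.016 with limma on log2(FPKM + 1) with and without the filter and to 0.072 with log2(FPKM + 0.1), and that of SKA1 to -0.066 with length and GC trends removed; the cause was not tested. With 1 library left out the values crossed 0 for CENPE (-0.35 to 0.56), SKA1 (-0.32 to 0.79), SGO2 (-0.30 to 0.060), CENPP (-0.0084 to 0.10), MIS12 (-0.18 to 0.0042) and CENPV (-0.66 to 0.63), none of which passed with all libraries. The 13 pair ratios became 14 to 18 with 1 library left out. A pair without overlap stays so when a library is dropped, so this count could only stay or rise. Its share over all pairs of genes was not computed with a library left out. On FPKM the count stayed 13. Scaling by gene length moves a ratio nearly alike in every library, so FPKM was not a separate check.

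The counts showed no sign that the replicate numbers pair the libraries, but with 3 libraries in each group they cannot show that no pairing existed. Deviations from the group means correlated at -0.025, -0.017 and -0.030 between libraries with the same number, and no library correlated best with its own number. With the replicate block, 12 members and 1858 genes over all genes tested passed, and all 12 members were among the 20. CENPV had the lowest counts of the members (10 to 52), and what limits its test, depth or spread between libraries, was not tested.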

Other observations

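Genes whose exons share bases with members are given here as values for pairs with over 100 shared exon bases and a mean of at least 20 CPM in NC for the neighbour, limits chosen after the values were seen. Of those named here, ADCY3 and NOL8 passed an adjusted p of 0.05 (edgeR) and the others did not. ADCY3, opposite CENPO, had a log2 fold change of -0.94 (45.1 CPM in NC and 23.5 CPM in shPRMT6, adjusted p = 0.00187, edgeR). NOL8, opposite CENPP, was at 0.30 (37.2 and 45.7 CPM, adjusted p = 0.0293, edgeR), and IPPK, also opposite CENPP, at 0.07. SLC35F6, on the same strand as CENPA, was at 0.35 (adjusted p = 0.0911, edgeR). DERL2, opposite MIS12, was at 0.30, CMC2, opposite CENPN, at -0.20, and THAP11 and NUTF2, opposite CENPT, at -0.26 and 0.04. OIP5-AS1, opposite OIP5, was 54.9, 60.9 and 48.0 CPM in NC and 63.05, 7.28 and 42.3 CPM in shPRMT6, so that shPRMT6 replicate 2 lay far below the other 5 libraries. In the same library OIP5 itself was 3.15 CPM, between the other shPRMT6 libraries.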
